A study of Mus musculus with 2 samples.

Results

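Liver cells that carried an endothelial profile were taken from a droplet library of CCl4-injured mice and set beside cells chosen the same way from a library of healthy mice. CCl4 (carbon tetrachloride) is a solvent that hepatocytes turn into a toxic radical, and repeated doses scar the liver. A cell was kept when it had at least 1000 UMIs (unique molecular identifiers, each counting 1 captured transcript) and at most 30% of them from mitochondrial genes. It then needed at least 8 UMIs in sum over Pecam1, Cdh5, Egfl7, Kdr, Ptprb and Eng. That sum had to exceed the sum of the stellate and mural genes Lrat, Reln, Colec11 and Rgs5, and the immune genes Cd68, Csf1r and Cd3e could reach 2 UMIs at most. In the CCl4 library 969 of 7130 kept cells passed, or 13.6% (exact binomial 95% interval 12.8 to 14.4%). In the healthy library 3629 of 5580 passed, or 65.0% (63.8 to 66.3%). The series held 14757 cells in all.

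Both libraries came from C57BL/6 mice with the genotype Col1a2CreER:Rosa26tdTomato, in which tamoxifen-activated Cre under a Col1a2 promoter marks collagen-producing cells with a red protein. The reporter plays no part in the choice of endothelial cells. The injured mice received repeated intraperitoneal CCl4 in corn oil over weeks, and the others are labelled healthy, with no solvent injection named for them in the labels. Livers were perfused with EGTA, pronase and collagenase and the cells were spun on a Nycodenz gradient, and the study's methods add a depletion of CD45+ cells with beads. The labels give neither the age nor the number of mice behind a library, and they call the content whole liver cells. There was 1 library per condition, so no test of the injury was possible. Library, injury and software version cannot be told apart, and every interval below covers counting error only. Within these limits a share of cells also cannot be read as a number of cells in the liver, because digestion, gradient and depletion all act on it.

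Endothelial cells line the inside of blood vessels. In the liver sinusoid they are thin, pierced by fenestrae and nearly free of a basement membrane, and they clear waste from the blood through scavenger and lectin receptors such as Stab1, Stab2, Clec4g and Lyve1. Their programme differs along the sinusoid: cells near the central vein make the Wnt ligands and Rspo3 that pattern hepatocytes, while cells near the portal tract make Dll4, Efnb2 and Ntn4. In chronic injury sinusoidal endothelium is known to lose fenestrae and to gain a basement membrane, a change called capillarisation.

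The 6 genes of the gate describe the chosen cells and support nothing by themselves. Their sum per cell had a median of 42 UMIs in the CCl4 cells (lowest 8, highest 204) and of 65 in the healthy cells (lowest 8, highest 293). The cells lay on both sides of the threshold without a gap in the CCl4 library: 121 chosen cells had 8 or 9 of these UMIs, and 129 cells with 6 or 7 passed the other gates and were left out. Of the 121 cells just inside, 106 carried more UMIs of mesenchymal genes than of the 6 gate genes, and the same was true of 119 of the 129 just outside. In the healthy library 63 chosen cells had 8 or 9 UMIs and 83 cells had 6 or 7.

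The endothelial label therefore held for a part of the chosen CCl4 cells only. For each cell the gate sum was set against the summed UMIs of 4 lists of other liver cells, namely mesenchymal cells, hepatocytes, cholangiocytes and mesothelial cells. In 364 of the 969 CCl4 cells another list exceeded the endothelial sum, and in 363 of them the mesenchymal list did so. The mesenchymal sum was at most 0.1 of the endothelial sum in 431 cells, above 0.1 and up to 0.25 in 146, and more than 5 times it in 302. Between these lay 23 cells at up to 0.5, 6 at up to 1, 10 at up to 2 and 51 at up to 5 times the endothelial sum. Many of the cells in which another list was higher had passed through Eng, an auxiliary receptor for TGF-beta that liver mesenchymal cells also make. Without Eng, 261 chosen CCl4 cells fell under 8 UMIs, 254 of them cells in which another list was higher, and in those 261 cells Eng held 93.3% of the gate UMIs. The other 110 cells in which another list was higher still had 8 gate UMIs or more without Eng. In the healthy library the mesenchymal list exceeded the endothelial sum in 69 of 3629 cells, and leaving out Eng removed 47. The remaining 605 CCl4 cells, 8.49% of the kept cells (7.85 to 9.16%), and 3389 healthy cells, 60.7% (59.4 to 62.0%), are called endothelial-dominant below. They are used for the description of endothelium, a choice made after the data had been seen, and values for all chosen cells are given beside them where the calls differ.

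**Figure D1:**
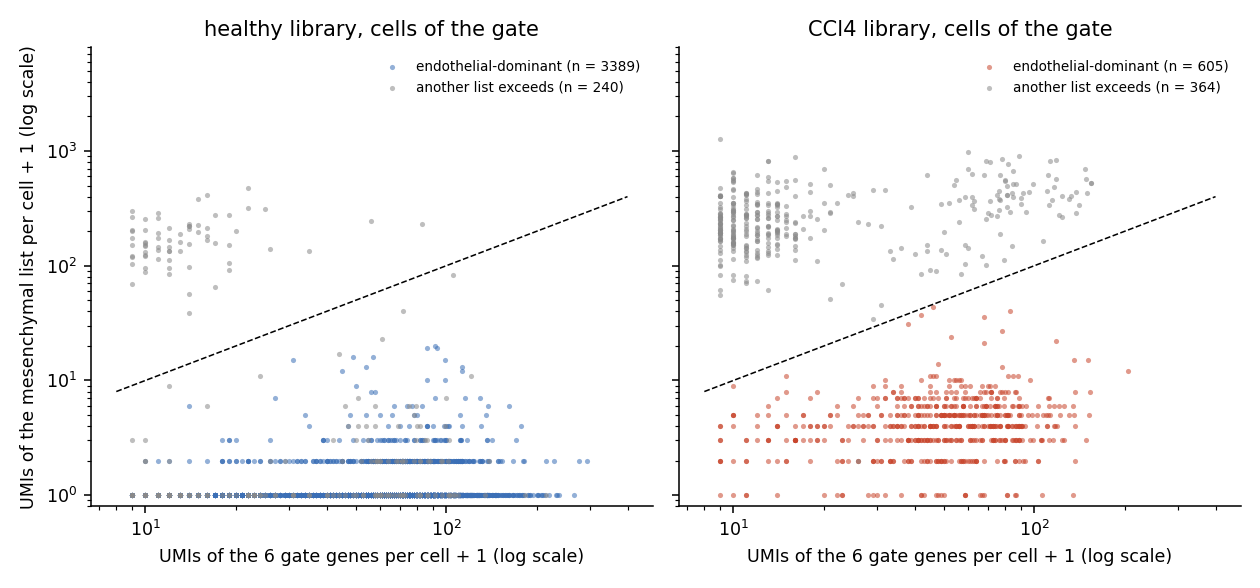
UMIs of the 6 gate genes per cell (x axis, log scale, 1 added) against UMIs of the mesenchymal list (y axis, log scale, 1 added) for every chosen cell, in the healthy library (left, 3629 cells) and the CCl4 library (right, 969 cells). Coloured points are endothelial-dominant cells, grey points are cells in which another list exceeded the gate sum, and the dashed line marks equal values. In the CCl4 library 364 grey points lie apart from the 605 coloured ones, mostly above the line and many near the threshold of 8 UMIs.

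The 20 endothelial markers that the gate did not use were present in the endothelial-dominant cells of both libraries. Their summed level was 9430 CPM (UMIs of a gene per 1000000 UMIs of the cells) in the healthy and 6784 CPM in the CCl4 cells, a ratio of 0.719 (95% counting interval 0.711 to 0.728). Over all chosen cells the ratio was 0.4085, since the mesenchyme-rich cells hold few of these transcripts. Immune genes of the gate were near 0 in both sets, at 4.38 and 4.31 CPM. The gate itself capped the UMIs of these immune genes in each cell. Their low level is therefore fixed by that choice and is no check on what the cells are. The mesenchymal list reached 535 CPM in the CCl4 endothelial-dominant cells against 37.9 CPM in the healthy ones. The level in cells that should lack these genes was measured as a reference. Col1a1, the main fibrillar collagen gene of scar-forming cells, stood at 102.5 CPM (452 UMIs) in the CCl4 endothelial-dominant cells and at 664 CPM in the 228 lymphoid cells of the same library, which do not make collagen. The lymphoid cells were chosen by T and B cell genes, with no limit on mesenchymal genes, so mixed droplets can be among them. The endothelial-dominant cells were selected against the mesenchymal list, so for its genes a lower level is partly fixed by that choice. How much of these transcripts is free RNA was not tested. A level at or below the lymphoid one is only stated as such and is not credited to endothelium. For genes outside the list, whether lymphoid cells make them was not tested. The healthy cells had a hepatocyte counterpart: the hepatocyte list had a UMI in 99.6% of the healthy endothelial-dominant cells (1545 CPM) and in 42.5% of the CCl4 ones (104 CPM). Transcripts of blood cells were low but not equal, with the erythroid list at 0.385 and 92.1 CPM, neutrophils at 3.08 and 14.97 CPM, macrophages and monocytes at 46.9 and 89.3 CPM, and dendritic cells at 139 and 117 CPM. B and plasma cell genes stood at 0.529 and 10.2 CPM, T and NK cell genes at 5.53 and 1.13 CPM, and platelet genes at 26.2 and 35.4 CPM. The cholangiocyte list was at 274 and 27.9 CPM and the mesothelial list at 41.4 and 68.9 CPM. The part of these transcripts in the results below was not tested. The libraries shared 10 cell barcodes, none of them among the chosen cells.

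A single locus took up much of the depth of the CCl4 endothelial cells. Gm42418, a predicted gene that overlaps a ribosomal RNA repeat, held 15.8% of the UMIs of the CCl4 endothelial-dominant cells and 0.435% of those of the healthy ones. Per cell its share had a median of 16.3% against 0.355%, and the ranges from the 10th to the 90th percentile, 9.43 to 25.1% and 0.183 to 1.19%, did not overlap. The share was lower in other cells of the CCl4 library, at 3.61% in mesothelial cells against 0.402% in healthy mesothelial cells. Lars2, a mitochondrial leucyl-tRNA synthetase gene, followed with 0.381% against 0.0175%. Because CPM divides by the total, every other gene of the CCl4 cells is pushed down by this. Leaving out both genes multiplied each ratio in endothelial-dominant cells by 1.19, so a ratio just below 1 can turn direction with that choice, as it did for Pecam1 (0.921 to 1.09), Bmpr2 (0.915 to 1.09), Nr2f2 (0.879 to 1.045), Ece1 (0.848 to 1.007) and Zeb2 (0.846 to 1.005). Whether the locus reports ribosomal RNA, cell state or library chemistry was not tested.

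By plain CPM, which holds this shift, more genes were lower than higher. Without Gm42418 and Lars2 the 2 counts were nearly equal in endothelial-dominant cells. With a mean of at least 10 CPM required, 8520 genes were compared in the endothelial-dominant cells, of which 345 (4.05%) were at least 2-fold higher in the CCl4 cells and 944 (11.1%) at least 2-fold lower. The median log2 ratio of all genes compared was -0.255. Without Gm42418 and Lars2 it was -0.006, and 545 genes were higher against 547 lower, so that the share of higher genes among those apart went from 26.8% to 49.9%. Over all chosen cells 741 of 9098 genes (8.14%) were higher and 1145 (12.6%) lower, and there the leading higher genes were mesenchymal ones such as Ltbp2, Dpt and Lum. With TMM scaling the share of higher genes among those apart went from 39.3% to 55% over all chosen cells. A list below is therefore read against these percentages and against the all-gene median.

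The sinusoidal scavenger and lectin receptors, which take up modified proteins, hyaluronan and immune complexes, were lower in sum and unequally so. Their summed level was 11270 CPM in the healthy and 6338 CPM in the CCl4 endothelial-dominant cells, a ratio of 0.562 (0.555 to 0.569). Clec4g, a lectin that binds glycans on pathogens, accounted for most of the gap, with 4118 CPM in the healthy and 1085 CPM in the CCl4 cells, 3.80-fold lower (ratio 0.264, 0.256 to 0.271). It was the 1 gene of the 10 compared that was at least 2-fold apart, against 11.1% lower over all genes. The other abundant receptors lay nearer to the all-gene median. Stab1, a scavenger receptor for modified lipoproteins, stood at 1164 and 708 CPM (ratio 0.608), and Stab2, the main hyaluronan scavenger, at 1011 and 737 CPM (0.729). Mrc1, the mannose receptor, was at 1578 and 1108 CPM (0.702), and Fcgr2b, the receptor that clears small immune complexes, at 1592 and 1237 CPM (0.777). Lyve1, a hyaluronan receptor, was at 468 and 572 CPM (1.22). Over the 10 genes the median log2 ratio was -0.53, and -0.26 over 11 genes when Gm42418 and Lars2 were left out. Lrp1, a lipoprotein receptor, is the exception by ratio (2.17 and 17.2 CPM). The lymphoid cells of the CCl4 library carried 80.7 CPM of it, so its CCl4 value did not exceed that reference. Over all chosen cells the summed ratio was 0.361, which includes the mesenchyme-rich cells.

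A further list of 16 sinusoidal identity genes was lower as a group, with 6 at least 2-fold lower and 0 higher of 16 compared and a median log2 ratio of -0.84. Without Gm42418 and Lars2 the count of lower genes was 2 and the median -0.59. Clec1b, a lectin-like receptor, went from 352 CPM to 88.4 CPM (3.98-fold lower, ratio 0.251, 0.226 to 0.278). Dnase1l3, a secreted nuclease that digests DNA in circulating particles, was at 3501 and 1514 CPM (2.31-fold lower), and Il6st, the shared receptor chain of the IL-6 family, at 1374 and 567 CPM (2.42-fold lower). Aqp1, a water channel, was at 3639 and 1904 CPM, and Gpr182, a chemokine-scavenging receptor, at 1625 and 1097 CPM. The transcription factors were closer to equal: Maf, which is needed for sinusoidal differentiation, stood at 1863 and 2040 CPM (1.10), and Gata4, a master factor of sinusoidal fate, at 214 and 178 CPM (0.833). At an equal depth of 2000 UMIs per cell, 46.2% of healthy and 14.7% of CCl4 endothelial-dominant cells had a UMI of Clec1b, while the share for Clec4g was 95.6% and 77.1%. In the lymphoid cells of the CCl4 library these shares were 0.659% and 1.72%, and in healthy cholangiocytes 0.927% and 6.74%. Both genes were thus found in fewer CCl4 cells at the same depth, and most CCl4 cells still had Clec4g.

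Markers of capillary and continuous endothelium were not higher as a group where the sinusoidal ones were lower. Their summed level was 7812 CPM in the healthy and 5090 CPM in the CCl4 endothelial-dominant cells (ratio 0.652, 0.642 to 0.661), with 1 of 14 genes at least 2-fold higher, 4 lower and a median log2 ratio of -0.49. Cd34, a sialomucin of continuous endothelium whose gain is a textbook sign of capillarisation, was the higher one, with 45.1 CPM in the healthy and 90.9 CPM in the CCl4 cells (ratio 2.01, 1.79 to 2.27). The lower ones were Cd9, a tetraspanin (556 and 164 CPM, 3.40-fold lower), Cd200, an inhibitory immune ligand (39.3 and 11.8 CPM), Vwf, the platelet adhesion factor of larger vessels (186 and 73.7 CPM, 2.52-fold lower), and Cav2, a caveolar coat gene. Gpihbp1, which carries lipoprotein lipase across capillaries, was at 2161 and 1138 CPM, and Ly6a at 522.5 and 505 CPM. Plvap, the diaphragm protein of fenestrae, was at 231 and 184 CPM (0.796).

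Basement membrane genes were higher. Of 10 compared, 5 were at least 2-fold higher, against 4.05% of all genes, and 0 lower, and the summed level went from 3633 CPM to 7783 CPM (ratio 2.14, 2.12 to 2.17). Sparc, a collagen-binding matrix protein, contributed most, with 1599 and 4250 CPM (ratio 2.66, 2.61 to 2.71). The 2 chains of type IV collagen followed, Col4a1 at 623 and 1475 CPM (2.37, 2.30 to 2.44) and Col4a2 at 319 and 676 CPM (2.12, 2.03 to 2.21). The laminin chain Lamc1 was at 35.7 and 107 CPM (2.99), Nid2, which links laminin to collagen IV, at 2.60 and 20.4 CPM, and the heparan sulfate proteoglycan Hspg2 at 497.5 and 717 CPM (1.44). The lymphoid cells of the CCl4 library held 1010 CPM of Sparc, 174 CPM of Col4a1 and 72.5 CPM of Col4a2, all below the endothelial values. At equal depth 68.2% of healthy and 91.2% of CCl4 endothelial-dominant cells had a Col4a1 UMI, against 11.7% of the lymphoid cells and 14.4% of healthy cholangiocytes. Sparcl1 and Lamb1 had larger ratios but stood at or under the lymphoid level, at 10.7 and 7.94 CPM in the CCl4 endothelial cells.

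**Figure D2:**
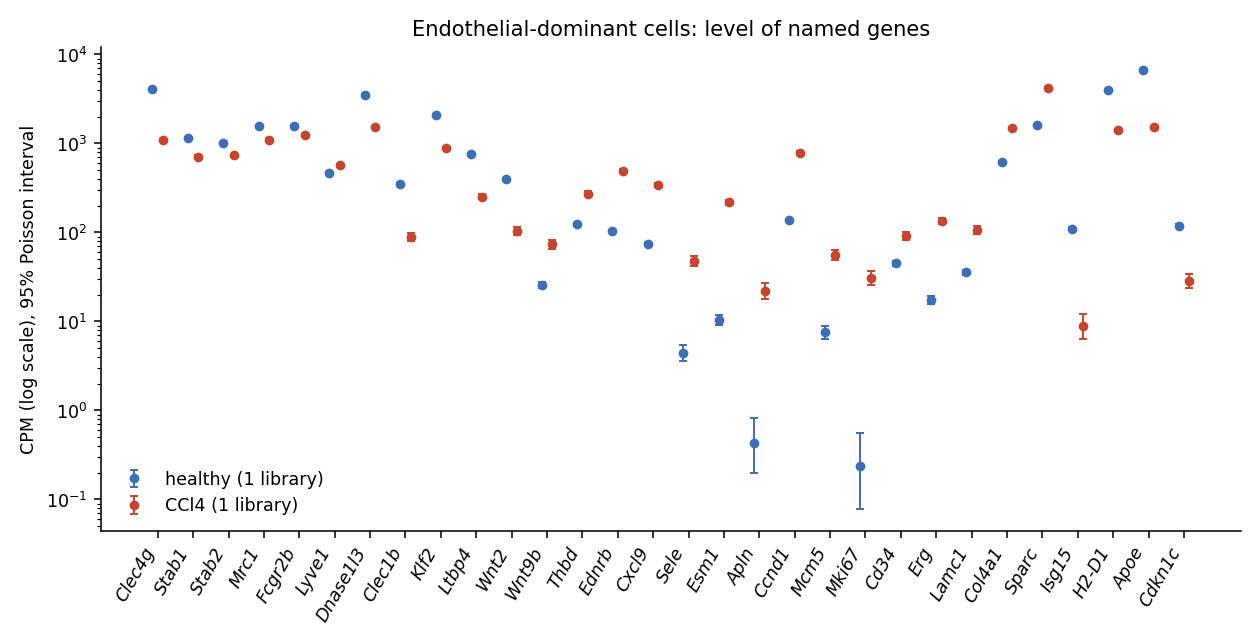
Level of 30 genes in endothelial-dominant cells, in CPM on a log axis, for the healthy library (blue, 3389 cells) and the CCl4 library (red, 605 cells); bars are 95% Poisson intervals and cover counting error only. Clec4g, Clec1b, Wnt2 and Isg15 lie lower in the CCl4 cells and Esm1, Ednrb, Cxcl9, Ccnd1 and Sparc higher, while Stab2 and Lyve1 lie close together.

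Sprouting and tip-cell genes held several of the larger ratios. Tip cells lead new vessel sprouts under VEGF and are held in check by Dll4 and Notch. Of 11 genes compared, 5 were at least 2-fold higher and 0 lower, with a median log2 ratio of 0.32. Esm1, a proteoglycan of tip cells, had 218 UMIs in the 3389 healthy and 968 UMIs in the 605 CCl4 cells, or 10.5 and 220 CPM (ratio 20.9, 18.1 to 24.4). Apln, a secreted peptide of tip cells, had 9 and 97 UMIs (0.433 and 22.0 CPM). Neither gene had a UMI in the 228 lymphoid cells. At equal depth the share of cells with an Esm1 UMI was 1.21% in the healthy and 18.7% in the CCl4 cells. Dll4 was not higher, with 146 and 100 CPM (0.685), and Igfbp3 (1.30 and 24.5 CPM) stood below the 96.2 CPM of the lymphoid cells. Mcam, an adhesion molecule of vessels, was at 161 and 202 CPM. Nes, an intermediate filament gene of newly formed vessels, and Pde2a, a cyclic nucleotide phosphodiesterase, are named after their values were seen: Nes was at 23.5 and 129 CPM (5.49) and Pde2a at 85.4 and 441 CPM (5.16).

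The VEGF receptors and angiopoietin receptors themselves were nearly level. None of 10 genes was at least 2-fold higher and 1 was lower, with a median log2 ratio of -0.16 that became 0.09 without Gm42418 and Lars2. Kdr, the main VEGF receptor and a gene of the gate, stood at 2066 and 2423 CPM, Flt1, a VEGF decoy receptor, at 902 and 1046 CPM (1.16), and Flt4, the receptor for VEGF-C, at 602 and 722 CPM (1.20). Nrp1, a VEGF co-receptor, was at 1572 and 1204 CPM, Tek, the angiopoietin receptor, at 441 and 238 CPM (0.540), and Tie1 at 302 and 205 CPM. Vegfa was the lower one, with 21.5 and 10.2 CPM, under the 26.1 CPM of the lymphoid cells. Notch genes were also without a member at least 2-fold apart among 8 compared (median log2 ratio -0.38). Notch1 stood at 383 and 294 CPM, its target Hes1 at 319 and 218 CPM, and the ligand Jag1 at 54.4 and 27.7 CPM.

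Cell cycle genes stood higher in the CCl4 cells, with 840 CPM in the healthy and 1513 CPM in the CCl4 cells summed over the whole list (ratio 1.80, 1.75 to 1.85). All 12 genes compared had a ratio above 1 and 9 were at least 2-fold higher, with a median log2 ratio of 1.61 (1.86 without Gm42418 and Lars2). Mki67, a marker of all dividing phases, had 5 UMIs over the 3389 healthy cells and 136 over the 605 CCl4 cells. Top2a, the topoisomerase that untangles replicated DNA, had 16 and 194 UMIs (0.770 and 44.0 CPM, ratio 57.1, 34.3 to 102). Of the endothelial groups described below, group 8 held 93 Mki67 and 146 Top2a UMIs. Groups 2, 3, 4, 5, 7 and 10 held 0 to 3 and 0 to 5 UMIs each. The rest of both CCl4 counts came from the 2 and 5 endothelial-dominant cells of groups 6 and 9, groups in which high doublet scores were frequent. The replication helicase genes Mcm5 and Mcm2 were at 7.56 and 55.8 CPM (7.38) and at 9.43 and 48.5 CPM (5.14), and Pcna, the DNA polymerase clamp, at 55.9 and 139 CPM (2.48). At equal depth 0.141% of the healthy and 3.79% of the CCl4 cells had a Top2a UMI, against 2.73% of the lymphoid cells. Ccnd1, the cyclin that drives entry into the cycle, differed over many more cells: it stood at 138 and 790 CPM (5.73, 5.45 to 6.02), and 21.8% and 66.8% of cells had a UMI at equal depth. Odc1, the first enzyme of polyamine synthesis, was at 16.5 and 153 CPM (9.29). In the CCl4 library lymphoid cells held 124 CPM and mesothelial cells 103 CPM of Odc1, and healthy mesothelial cells held 126 CPM. Among 7 cell cycle inhibitors and p53 targets 0 were at least 2-fold higher and 1 lower. Cdkn1c, an inhibitor of G1 cyclin kinases, was that gene, with 119 and 28.35 CPM (4.21-fold lower), while Cdkn1a (p21) stood at 68.7 and 107 CPM (1.56).

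BMP and TGF-beta genes were lower as a group. Sinusoidal endothelium makes BMP2 and BMP6, which hepatocytes read as a signal of iron load, and the Id genes are direct BMP targets. Of 15 genes compared 0 were at least 2-fold higher and 8 lower, with a median log2 ratio of -1.08, and without Gm42418 and Lars2 the count of lower genes was 6 and the median -0.83. The targets Id1, Id2 and Id3 were at 369 and 149 CPM, at 532 and 139 CPM and at 1576 and 549 CPM, ratios of 0.405, 0.262 and 0.348. Smad6, an inhibitor of the pathway that BMP induces, was at 216 and 102 CPM (0.472). Of the ligands, Bmp6 was at 157 and 50.8 CPM (3.09-fold lower) but Bmp2 at 1257 and 1031 CPM (0.820). The receptor Bmpr2 stood at 413 and 378 CPM (0.915). Ltbp4, which tethers latent TGF-beta to the matrix, was at 756 and 253 CPM (2.98-fold lower). Over all chosen cells the ratio of Id3 was 0.811 instead of 0.348, since the mesenchyme-rich cells also carry it.

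Zonal genes differed unequally. Wnt2, made by central-zone endothelium, stood at 396 and 104 CPM (3.81-fold lower, ratio 0.263, 0.239 to 0.289), and 44.0% of healthy against 14.0% of CCl4 cells had a UMI at equal depth. Wnt9b, the ligand of endothelium at the central vein itself, was at 25.7 and 73.5 CPM (2.86, 2.48 to 3.29), and Thbd, the thrombin receptor thrombomodulin, at 124 and 274 CPM (2.21). Rspo3, which amplifies Wnt signals, was at 238 and 168 CPM (0.708), and Gatm, an enzyme of creatine synthesis, at 718 and 1058 CPM (1.47). The list of Wnt and R-spondin ligands had 1 gene higher and 1 lower of 4 compared. For the central list as a whole 2 of 12 genes were higher and 1 lower. The portal list had 0 higher and 4 lower of 12, with a median log2 ratio of -0.78 (2 lower and -0.54 without Gm42418 and Lars2). Its lower members were Ltbp4, Ntn4, a guidance protein of portal sinusoids (443 and 158 CPM), and the gap junction genes Gja4 (376 and 176 CPM) and Gja5 (23.1 and 11.1 CPM). Msr1, a scavenger receptor enriched on the portal side, stood at 207 and 264 CPM (1.28). Since the gate does not choose cells by zone, a different mix of zones and a different level per cell cannot be told apart in these sums.

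**Figure D3:**
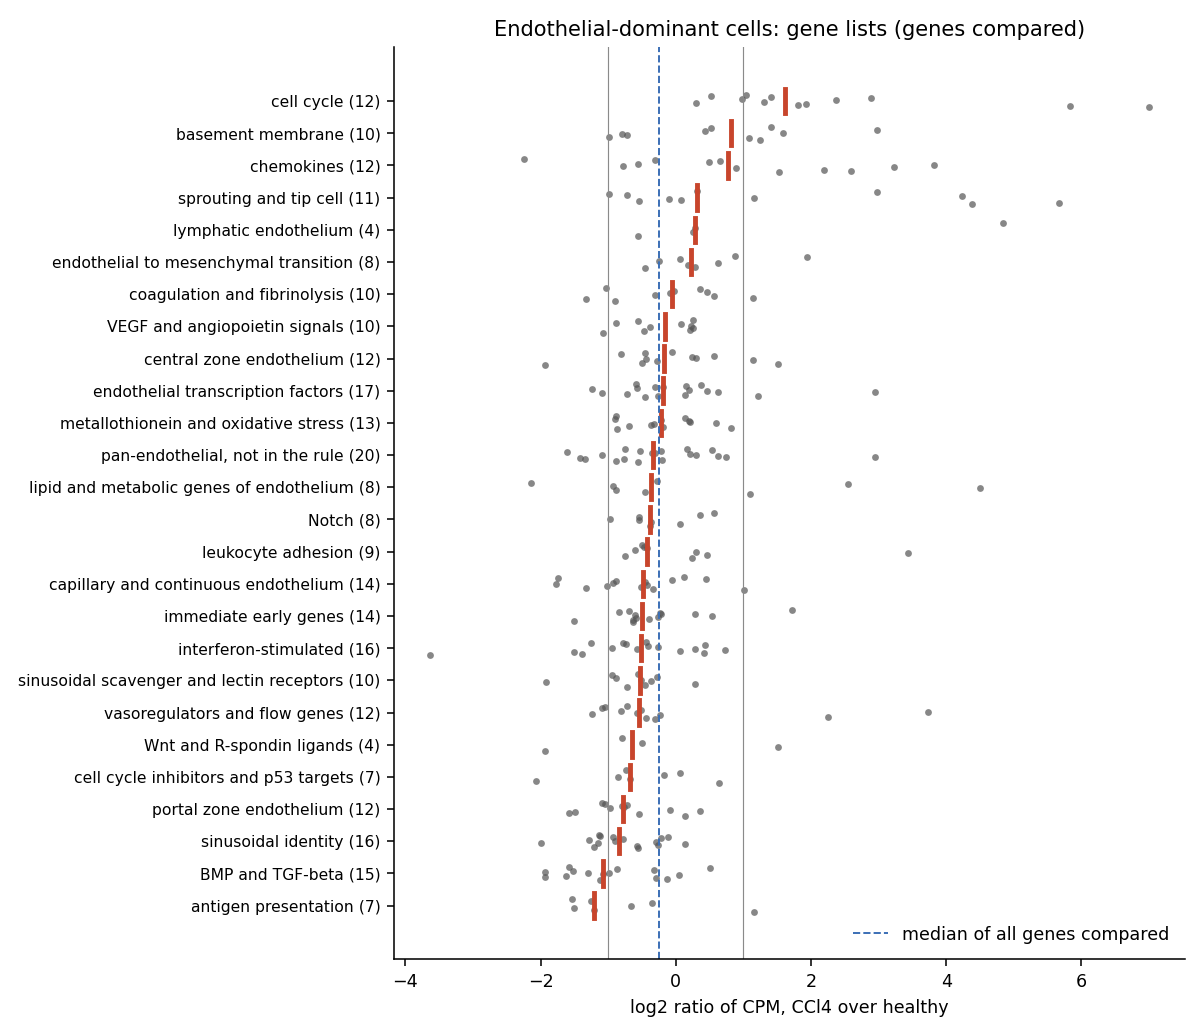
Log2 ratio of CPM, CCl4 over healthy, of each gene in 26 lists (rows, with the number of genes compared) in endothelial-dominant cells; grey dots are genes, red bars the median of a list, the dashed line the median of all genes (-0.255) and thin lines mark 2-fold in each direction. Cell cycle, basement membrane and chemokine lists have medians of 1.61, 0.81 and 0.78, while BMP and TGF-beta and antigen presentation lie at -1.08 and -1.21.

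Among the regulators of vessel tone the endothelin B receptor stood out. Ednrb, which clears endothelin and triggers nitric oxide release, stood at 103.5 CPM (2151 UMIs) in the healthy and 493 CPM (2175 UMIs) in the CCl4 endothelial-dominant cells, a ratio of 4.76 (4.49 to 5.06). At equal depth 6.60% and 32.7% of cells had an Ednrb UMI, against 1.70% of the lymphoid cells and 0.255% of healthy cholangiocytes. Klf2, the transcription factor that laminar flow induces, was at 2109 and 895 CPM (2.36-fold lower), and its relative Klf4 at 509 and 341 CPM. The nitric oxide synthase Nos3 stood at 82.5 and 66.7 CPM (0.808) and the endothelin gene Edn1 at 79.9 and 58.7 CPM (0.735). Ece1, which processes endothelin, was at 407 and 345 CPM (0.848). Of the 12 genes of this list 2 were at least 2-fold higher and 3 lower. The other higher one, Ptgis, a prostacyclin synthase (1.88 and 24.95 CPM), was below the 88.0 CPM of the lymphoid cells. The 3 lower genes were within 2-fold without Gm42418 and Lars2.

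Inflammatory genes split into a chemokine part that was higher and an antigen presentation part that was lower. Chemokines had 5 of 12 genes at least 2-fold higher and 1 lower, with a median log2 ratio of 0.78. Cxcl9, an interferon-gamma target that draws T cells, was at 75.1 and 343 CPM (4.57, 4.25 to 4.91), and 9.08% and 32.6% of cells had a UMI at equal depth, against 0.357% of the lymphoid cells. Cxcl10, its relative, was at 270 and 503 CPM (1.86). Cxcl16, a membrane-bound ligand for CXCR6, was at 314 and 182 CPM (0.581). Ccl2 was at 4.14 and 58.5 CPM, above the 14.7 CPM of the lymphoid cells. Cxcl12 and Cxcl1 (49.2 and 54.4 CPM in the CCl4 cells) stood below the 122 and 70.1 CPM of the lymphoid cells. Sele, the selectin that endothelium shows after cytokine activation, was the single adhesion gene of 9 at least 2-fold apart, with 92 and 212 UMIs (4.43 and 48.1 CPM, ratio 10.9, 8.46 to 14.0) and 0 UMIs in the lymphoid cells. Vcam1 and Icam1, further docking sites for leukocytes, were at 124 and 171 CPM (1.38) and at 126 and 149 CPM (1.18).

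Class I antigen presentation genes were lower, with 4 of 7 genes of their list at least 2-fold lower and 1 higher (median log2 ratio -1.21). Without Gm42418 and Lars2 the count of lower genes was 3 and the median -0.96. H2-D1, a class I heavy chain, stood at 4014 and 1415 CPM (2.84-fold lower), H2-K1, another, at 2385 and 1034 CPM (2.31-fold lower), and B2m, their light chain, at 2908 and 1832 CPM (0.630). Psmb8 and Psmb9, subunits of the immunoproteasome, were at 206 and 86.4 CPM and at 133 and 45.8 CPM. Heavy chain genes are near-identical copies, and how the counting split their reads is not known. H2-D1 and H2-K1 were lower in mesothelial cells of the CCl4 library too, with ratios of 0.549 and 0.570. Among 16 interferon-stimulated genes 0 were at least 2-fold higher and 4 lower: Isg15, a ubiquitin-like modifier (110 and 8.84 CPM, 12.4-fold lower), Ifit1 and Ifit3, which bind viral RNA (55.5 and 21.3 CPM, 64.7 and 22.9 CPM), and Gbp2, a guanylate-binding protein (50.7 and 21.3 CPM). In mesothelial cells the ratio for Isg15 was 0.182, so its lower level was not confined to endothelium. Irf1, a transcription factor of the interferon response, was at 152 and 253 CPM (1.67).

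Endothelial to mesenchymal transition, in which endothelial cells take on a fibroblast programme, was examined with 16 genes. In the endothelial-dominant cells 8 had enough UMIs, of which 1 was at least 2-fold higher and 0 lower (median log2 ratio 0.23). That gene was Fn1, the matrix protein fibronectin (8.47 and 32.7 CPM), with 740 CPM in the lymphoid cells. Vim, an intermediate filament of mesenchymal cells that endothelium also makes, was at 415 and 433 CPM (1.04), and the repressors Zeb1 and Zeb2 at 166 and 256 CPM (1.54) and at 293 and 248 CPM (0.846). Acta2 and Tagln, contractile genes, had 28 and 68 UMIs in the 605 CCl4 cells, or 6.35 and 15.4 CPM, against 88.8 and 125 CPM in the lymphoid cells. Over all chosen cells the summed ratio of the list was 3.12, and in endothelial-dominant cells it was 1.14, so the higher sum over all chosen cells came with the 364 cells in which another list exceeded the endothelial sum. Because the endothelial-dominant cells were selected against mesenchymal genes, a cell far along such a transition would have been left out of them.

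Lineage factors of endothelium were mostly within 2-fold. Of 17 endothelial transcription factors compared, 2 were at least 2-fold higher and 2 lower, with a median log2 ratio of -0.19. Erg, an ETS factor that maintains endothelial identity, stood out with 17.5 and 135 CPM (7.71, 6.75 to 8.81). Mesothelial cells held 0 and 0.583 CPM of Erg, too little to serve as a reference between the libraries. Whether the differing gene annotations of the files bear on its count was not tested. Ets1, a related factor active in growing vessels, was at 648 and 896 CPM (1.38), and Nr2f2, a factor of venous fate, at 835 and 734 CPM (0.879). Of the general markers outside the gate Cldn5, a tight junction protein (1338 and 530 CPM), Ramp2, a chain of the adrenomedullin receptor (1032 and 386 CPM), and Clec14a, a vessel lectin (952 and 312 CPM), were more than 2-fold lower, and Mmrn2, a matrix partner of Clec14a, was at 743 and 599 CPM (0.807).

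Metabolic and stress genes gave a mixed picture. Cd36, a fatty acid transporter, was at 391 and 839 CPM (2.15, 2.07 to 2.23), and Fabp4, a fatty acid carrier, at 1717 and 1251 CPM (0.729). Apoe, the ligand of lipoprotein receptors, was at 6772 and 1540 CPM (4.40-fold lower), and the healthy cholangiocytes carried 16300 CPM of it. Lpl and Angptl4, at 21.8 and 12.5 CPM in the CCl4 cells, stood under the 70.1 and 51.3 CPM of the lymphoid cells. Coagulation genes had 1 of 10 higher (Thbd) and 2 lower (Vwf and S100a10); F8, the factor VIII gene that liver endothelium supplies to the blood, was at 825 and 443 CPM (0.537), with the all-gene median ratio at 0.838. Immediate early genes, which respond to the stress of cell isolation, had 1 of 14 higher (Nr4a1) and 1 lower (Fosb, 887 and 314 CPM), with Jun at 2097 and 1356 CPM and Fos at 1436 and 922 CPM. Among 13 metallothionein and oxidative stress genes 0 were at least 2-fold apart. Mt1 and Mt2, metal-binding proteins, went opposite ways, with 649 and 354 CPM (0.546) and 109 and 191 CPM (1.76).

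By size alone, the genes most apart at a mean of 50 CPM or more were chosen where they lay further out than in mesothelial cells of the same libraries. Apart from Gm42418, Lars2, Esm1, Odc1, Erg, Ccnd1 and Cxcl9, the higher ones were Col1a1, Col3a1 and Dcn, matrix genes that stood under their lymphoid levels, B3gnt2, a glycosyltransferase (1.06 and 118 CPM, with 83.1 CPM in lymphoid cells), and Armcx4 (41.25 and 182 CPM, with 5.70 CPM in lymphoid cells). S100a6, Rgs2 and Timp2 were also among them, at 83.9, 79.8 and 136 CPM in the CCl4 cells. Their lymphoid levels were 719, 275 and 177 CPM. Whether lymphoid cells make these genes themselves was not tested, so those levels give no background for them. B3gnt2 was higher in mesothelial cells too, at 0.985 CPM in the healthy and 26.7 CPM in the CCl4 library, so its difference was not confined to endothelium. The lower ones held transcripts abundant in other cells of the healthy library, such as Spp1, at 203 and 2.04 CPM in endothelial-dominant cells and 23900 CPM in healthy cholangiocytes, and Rbp4. Genes with little in cholangiocytes or mesothelial cells were Cyp26b1, an enzyme that degrades retinoic acid (157 and 24.0 CPM, 6.54-fold lower) and Ada, adenosine deaminase (90.6 and 18.8 CPM, 4.81-fold lower). Itm2b, a membrane protein, was at 4230 and 678.5 CPM (6.23-fold lower), and at a ratio of 0.382 in mesothelial cells. The list also held Ccdc152, Tmem14c, Mgp, Isg15, P2rx4, Ldhb, Mgst1, H2-Q7, Adgre5 and Apoe. Tmem14c was lower in mesothelial cells too, at 107.9 CPM in the healthy and 5.52 CPM in the CCl4 library.

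The 969 chosen CCl4 cells fell into 10 groups when clustered, and outside groups 2, 3, 4, 5, 7, 8 and 10 there were only 2 endothelial-dominant cells in group 6 and 5 in group 9. The genes that define a group are a description of it, with no test. Genes said to lead a group have the largest folds over all other chosen cells, the mesenchyme-rich ones included. Group 1, the largest with 246 cells, held no endothelial-dominant cell: Col1a1 stood at 4480 CPM, Pecam1 at 11.1 CPM and Eng at 634 CPM, and Eng made up 85.9% of its gate UMIs. It was led by Fgl2, Gucy2g, Tmem100, Casq2, Dpep1 and Thbs4. Group 6, with 79 cells, carried stellate genes (Colec10, Rgs5 and Reln) together with Kdr at 1016 CPM and Pecam1 at 291 CPM. Its cells had a median of 22945 UMIs, and 33 of them (41.8%) were among the highest doublet scores of the library. Group 9, with 41 cells, held all 8 mesothelial markers, Mki67 at 252 CPM and 23 cells with such scores. High doublet scores were thus frequent in groups 6 and 9, at 41.8% and 56.1%, and rare in group 1, at 4.47%.

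Among the endothelial groups of the CCl4 cells the genes of the zonal lists were unequally spread. Where a cell lay in the liver was not measured. Group 3, 122 cells, was led by Msr1 (707 CPM), Mecom, Adgrg6, Dll4 (212 CPM) and Efnb2 (265 CPM), and 7 of the 12 portal genes were enriched in it over the other endothelial groups. Enriched here means a level at least 2-fold that of the other endothelial groups and a UMI in at least 10% of the cells. Adgrg6, Mecom and Efnb2 were not particular to group 3, since group 10 held them at 723, 450.5 and 345 CPM. Group 4, 103 cells, had Alox12, Plxnc1, Kit (391 CPM) and the macrophage genes C1qa and C1qb among its leading genes. It held Wnt2 at 182 CPM and Gatm at 1966 CPM, with 3 of 12 central genes enriched. Kit was not particular to group 4, since group 7 held it at 379 CPM. Group 7, 64 cells, had 10 of the 12 central genes enriched, among them Wnt9b (509 CPM), Rspo3 (1194 CPM), Wnt2 (416 CPM), Thbd (1254 CPM) and Selp. It had little of the sinusoidal Lyve1 (76.8 CPM), and its leading gene by ratio, Nts (374 CPM), was found in 6 cells only. Nts is also the 1 gene at least 2-fold higher of the 4 compared in the lymphatic list, with 1.83 and 52.2 CPM in the healthy and CCl4 endothelial-dominant cells. Group 10, 26 cells, had 10 of 14 capillary and 8 of 12 portal genes enriched, with Vwf at 667 CPM, Ly6c1 at 534 CPM, Gja5, a gap junction gene of arteries, at 228 CPM, and Nrg1.

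The genes that were higher in the CCl4 cells did not peak in the same groups. Esm1 reached 793 CPM in group 5 (95 cells, with Kcne3, Kcnj2, Apln and Angpt2), 183 CPM in group 3 and 191 CPM in group 8, and 0 CPM in group 7. Stab2 and Lyve1, the sinusoidal receptors, stood at 848 and 855 CPM in group 5, against 786 to 924 CPM and 581 to 714 CPM in groups 2, 3 and 4. Mki67 reached 152 CPM in group 8 (62 cells), where 15 of 18 cell cycle genes were enriched, and lay between 0 and 4.80 CPM in groups 2, 3, 4, 5, 7 and 10. Group 8 also held Stab2 at 823 CPM and Ccnd1 at 1175 CPM. Ccnd1 was high in groups 2, 3, 4 and 5 too, at 762 to 1054 CPM, and low in groups 7 and 10, at 127 and 150 CPM. Ednrb had the reverse order, with 1629 CPM in group 7, 1579 CPM in group 10 and 162 to 446 CPM in groups 2, 3, 4, 5 and 8. Cxcl9 was at 354 to 527 CPM in groups 3, 4, 5 and 8 and at 66.7 to 123.5 CPM in groups 2, 7 and 10. Col4a1 lay between 1369 and 1657 CPM in all 7 endothelial groups, a narrow range. Group 2, 131 cells, had the lowest depth of the 10 groups, with a median of 4167 UMIs, and its leading genes by fold came from few cells: Ccl21a had UMIs in 2 cells, Spp1 in 1 and Alb in 20. Gpihbp1, the anchor of lipoprotein lipase on capillaries, had UMIs in 116 of the 131 cells and stood at 1574 CPM. The other chosen cells, the mesenchyme-rich groups included, had 445 CPM. Over the other endothelial groups alone Gpihbp1 was not among the 10 leading genes of group 2, the last of which had a fold of 1.77.

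**Figure D4:**
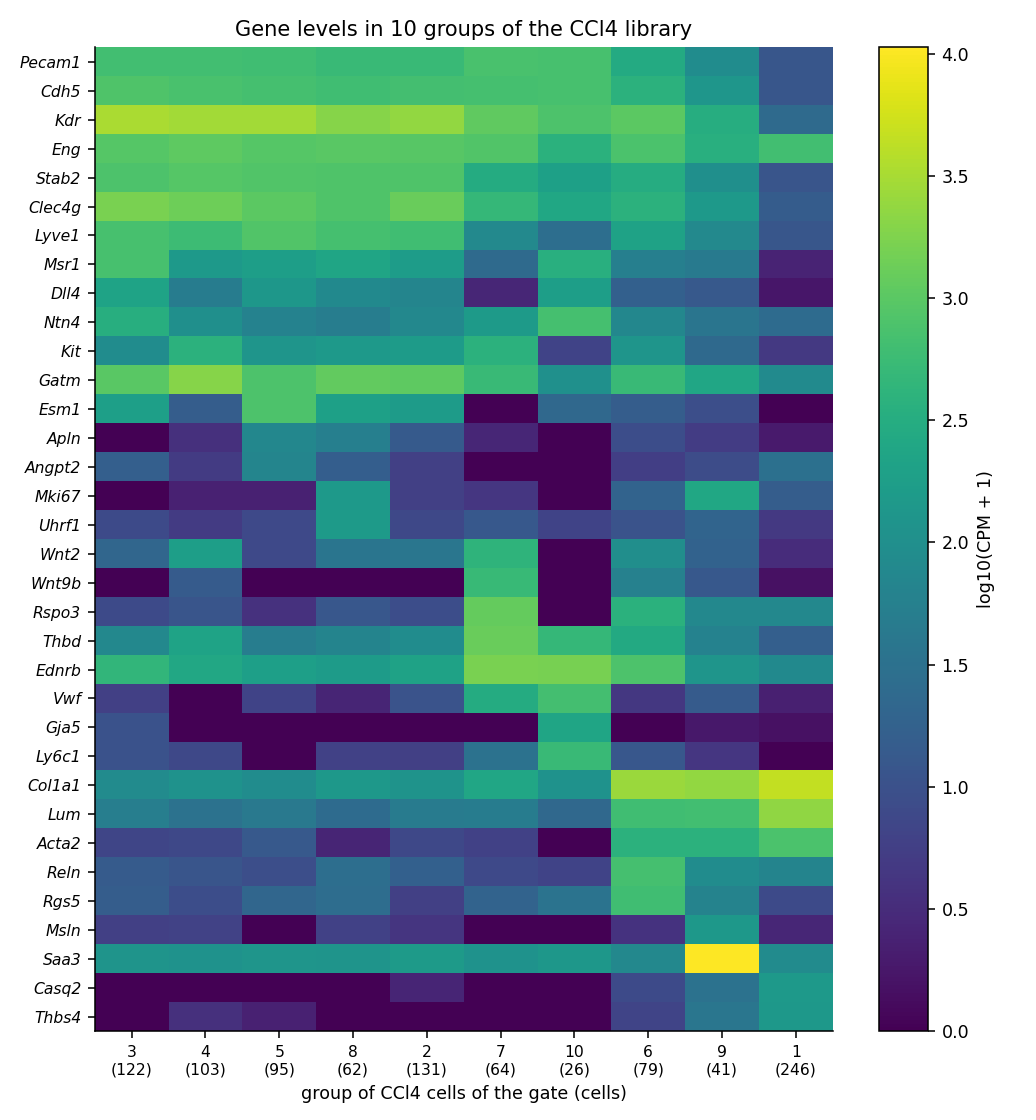
Level of 34 genes (rows) in the 10 groups of the 969 chosen CCl4 cells (columns, with the number of cells), as log10(CPM + 1). The 7 columns on the left are the endothelial groups, with Pecam1 between 533 and 745 CPM, and the 3 on the right (6, 9 and 1) carry Col1a1 at 2336 to 4480 CPM. Esm1 peaks in group 5, Mki67 in groups 8 and 9, Wnt9b in group 7 and Gja5 in group 10.

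The share of cells that carried a transcript was compared at 2000 UMIs per cell, since depth differed. This left out 313 of 3389 healthy and 28 of 605 CCl4 endothelial-dominant cells. At that depth the median cell had 1227.2 genes with a UMI in the healthy and 1080.7 in the CCl4 library. Without thinning the shares for Esm1 were 2.30% and 28.6%, for Ednrb 9.38% and 49.6%, and for Wnt2 61.5% and 29.1%, at median depths of 6214 and 6939 UMIs. The lymphoid cells of the CCl4 library had a median of 4229.5 UMIs and the healthy cholangiocytes one of 11548. Their unthinned shares were 3.95% and 0.814% for Ednrb, while for Esm1 0 of 228 lymphoid cells had a UMI, which allows a share of cells with a UMI of up to 1.32% (3 counts in 228 cells).

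**Figure D5:**
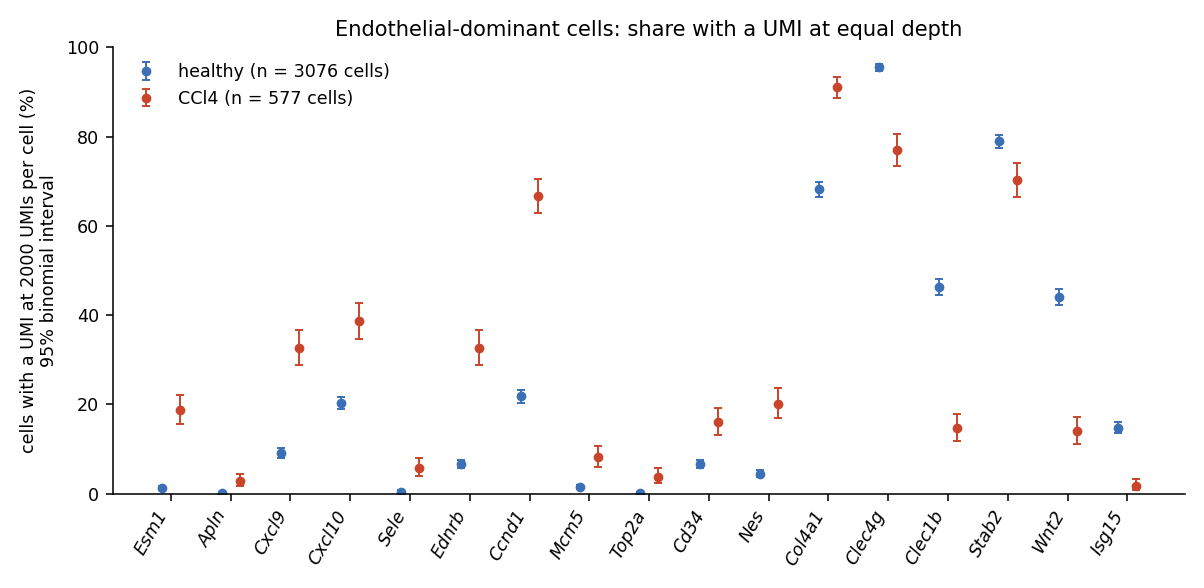
Share of endothelial-dominant cells with at least 1 UMI of a gene after thinning to 2000 UMIs per cell (y axis, percent, with 95% binomial intervals for counting error) for 17 genes in the healthy library (blue, 3076 cells) and the CCl4 library (red, 577 cells). Esm1, Cxcl9, Ednrb and Ccnd1 were found in more CCl4 cells (18.7, 32.6, 32.7 and 66.8%) and Clec1b, Wnt2 and Isg15 in fewer (14.7, 14.0 and 1.75%).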

How the data were processed

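Droplet 3' libraries (10x Genomics, version 2 chemistry per the labels) of liver cells were read, 1 healthy and 1 CCl4. The authors deposited UMI counts per gene and cell barcode, for called cells only, and the file headers name Cell Ranger 3.1.0 (healthy) and 6.0.1 (CCl4). The genome build is not settled, since the processing notes list a human and a mouse build. Gene identifiers are mouse. The files list 31053 (healthy) and 32285 (CCl4) genes, so their gene annotations differed. The 30406 genes present in both files (over 99% of UMIs) were used. How the difference bears on the count of a single gene was not tested. The files held 6297 healthy and 8460 CCl4 cells, with 51122846 and 97611831 UMIs.

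Counts were summed over the chosen cells of a library and divided by their total (CPM). Levels have exact Poisson, ratios exact conditional binomial and shares Clopper-Pearson 95% intervals, and UMIs of cells of 1 library are not replicates. With 1 library per group no p-value was computed and no cell was treated as a replicate. A gene was compared at a mean of at least 10 CPM. Shares of cells were thinned to 2000 UMIs by the hypergeometric formula. Groups came from scanpy 1.11.5 (1500 variable genes, 15 components, 15 neighbours, Leiden resolution 0.6). Their clustering left out mitochondrial and ribosomal protein genes, Xist, Tsix, Ddx3y, Uty, Kdm5d and Eif2s3y. All genes of the X and Y chromosomes were left out of the leading genes of a group. Doublet scores from the Scrublet routine of scanpy were used to remove cells in an alternative only. TMM factors came from edgeR 4.0.16. Scripts were tested on simulated counts.

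The gate and the gene lists were chosen with earlier results of these data known, and the endothelial-dominant set, the gate without Eng and the CPM without Gm42418 and Lars2 were added after the data had been seen. Of each list the most abundant genes and those furthest apart with at least 20 UMIs were named, up to 8, and beside them the 15 highest and 15 lowest ratios at a mean of at least 50 CPM that lay at least 1 further out on the log2 scale than in mesothelial cells. Mitochondrial and ribosomal protein genes, Xist, Tsix and the Y-linked genes Ddx3y, Uty, Kdm5d and Eif2s3y were not named. Other X-linked genes, such as Apln, F8 and Armcx4, were. Mesothelial, lymphoid and cholangiocyte cells for comparison were gated by their own marker sums. Other thresholds, cell filters and scalings were tried as alternatives.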

Additional observations from a re-analysis of the deposited data

How the results depend on the processing

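With 1 library per condition, no alternative could separate injury from library, and depth limits genes with few UMIs, whose intervals are wide. No paired analysis was possible because each group has 1 library, and leaving out a replicate was not possible. The share of chosen cells in the CCl4 library was 16.6% with at least 5 gate UMIs, 10.9% with at least 12, 11.4% with the gate as a rate per UMI, 9.93% without Eng and 8.49% for endothelial-dominant cells. In the healthy library it was 66.9%, 62.6%, 62.1% without cells rich in epithelial genes and 60.7% for endothelial-dominant cells. Without a minimum beyond 3 UMIs 2931 genes were higher and 2912 lower, at a mean of at least 50 CPM 247 and 478. TMM scaling left 741 lower, and endothelial-dominant cells 345 higher. The summed ratio of the scavenger and lectin receptors over all chosen cells was 0.330 and 0.4235 with 5 and 12 gate UMIs, 0.475 with the rate, 0.328 without epithelial-rich cells, 0.4855 for cells with sinusoidal genes, 0.513 without Eng, 0.415 with each cell weighing the same, 0.394 without the 50 most abundant genes, 0.416 with TMM, 0.401 without Gm42418 and Lars2 and 0.562 for endothelial-dominant cells. In the same order the capillary list gave 0.352, 0.480, 0.547, 0.367, 0.566, 0.588, 0.509, 0.430, 0.454, 0.439 and 0.652, and 0.389 at 10% mitochondrial UMIs. All of these stayed below 1. In endothelial-dominant cells the summed ratio turned from below to above 1 for central zone genes (0.874 to 1.005 without the 50 most abundant genes and 1.04 without Gm42418 and Lars2), for VEGF and angiopoietin genes (0.946 to 1.09, to 1.08 with TMM and to 1.12) and for endothelial transcription factors (0.848 to 1.01 without Gm42418 and Lars2). These settings change the total by which CPM is divided.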

Other observations

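Group 1 of the chosen CCl4 cells, 246 cells with Eng as nearly their only gate gene, shared leading genes that belong to no endothelial list, among them Fgl2, a secreted fibrinogen-related protein, Casq2, a calcium store protein of muscle, Thbs4, a matrix thrombospondin, and Acta2 at 777 CPM. Its median cell had 220 UMIs of the mesenchymal list and 10 of the gate. Removing the cells with high doublet scores from the 969 left 894, since 75 had such a score, and 65 of the 75 were cells in which another list exceeded the endothelial sum.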
